A study of Mus musculus with 153 samples.

Results

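The desmosome genes described here are the desmogleins Dsg2, Dsg3 and Dsg4, the desmocollins Dsc2 and Dsc3, the plakin gene Dsp, and the armadillo protein genes Jup, Pkp1 and Pkp3. They were named by symbol, and each was read from the probe set with the highest mean among those annotated with its symbol alone. Of 10 genes so named, 9 had such a probe set, among 18810 genes measured, and Dsc1 was not analysed here. Dsp had 2 such probe sets and the other 8 genes had 1 each.

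Desmosomes are junctions that bind the keratin filaments of one epithelial cell to those of the next. Desmogleins and desmocollins are cadherins whose outer parts bridge the gap between the cells. Inside the cell, plakoglobin (the product of Jup) and the plakophilins hold the cadherin tails, and desmoplakin ties this plaque to keratin. The cadherins come in isoforms that differ by layer: Dsg2 is known from simple epithelia, basal cells and the hair follicle, Dsg3 and Dsc3 from the lower epidermis, and Dsg4 from the hair shaft cortex and the upper epidermis.

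The measurements are microarray profiles of tail skin, 1 array per mouse, taken from untreated mice 8 weeks old. Male Mus spretus had been crossed with FVB/N females of genotype Hras-/-, and the F1 daughters were mated with FVB/N males that were Hras-/- or Hras-/+. The profiles comprise 37 HET mice (Hras+/-, 19 males and 18 females), which are set against WT mice (Hras+/+, 62 males and 52 females). Mice of this cross are genetically distinct, so each is its own replicate, and they carry a mixture of FVB/N and spretus alleles. The number of WT mice makes it uncertain that they came from this cross. If they did not, genotype and cross cannot be told apart. The arrays were run on 3 plates, which held 9, 10 and 18 HET mice and 40, 36 and 38 WT mice on plates 1, 2 and 3. The labels mark 2 further arrays, of WT males on plate 2, as outliers, and these were left out.

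Values are log2 expression after RMA, which removes background, brings the probe values of the arrays to a common distribution and gives 1 value per set of probes. A difference of 1 on this scale is a doubling. Array medians lay between 4.67 and 4.89, and the lower quartile of an array between 3.02 and 3.20, so differences in level between whole arrays remained. The epidermal markers of the tissue were high in every mouse, with Krt5, a basal keratin gene, between 11.59 and 12.15 and Krt10, a suprabasal one, between 12.03 and 12.37. Dermal collagen was also present (Col1a1 from 10.32 to 12.09), and Acta1, a skeletal muscle actin gene, ranged from 4.57 to 9.66. The samples were therefore whole skin, not epidermis, and in such bulk samples fewer cells of a type and less RNA per cell cannot be told apart. Different probe sets bind with different strength, so the levels of 2 genes are not set against each other.

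Dsg4, the desmoglein of the hair shaft, varied far more between mice than the other desmosome genes. In HET mice it had a lowest level of 5.22, a median of 7.31 and a highest of 9.604, against 5.21, 7.79 and 9.69 in WT mice. The groups overlapped over almost their whole range, and the span over all mice was 22.4-fold. Dsg3, the desmoglein of the lower epidermis, had 8.14, 8.51 and 8.88 in HET mice (lowest, median, highest), against 8.03, 8.53 and 9.03 in WT mice. Dsg2, the desmoglein found most widely in epithelia, had 6.16, 6.79 and 7.19 in HET mice, against 6.23, 6.77 and 7.28 in WT mice. Over all mice Dsg3 spanned 1.002 and Dsg2 1.11 log2 units, against 4.48 for Dsg4, and in both genes the groups overlapped.

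Of the desmocollins, Dsc2, the most widely expressed isoform, had 4.94, 5.81 and 6.45 in HET mice, against 5.003, 5.90 and 6.80 in WT mice. Dsc3, the isoform of the lower epidermis, had 10.97, 11.14 and 11.40 in HET mice, against 10.89, 11.15 and 11.41 in WT mice. The span over all mice was 3.62-fold for Dsc2 and 1.43-fold for Dsc3, with the groups overlapping in each.

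The plaque genes spanned 2.01-fold or less over all mice, as Dsg3 also did. Dsp, which encodes the keratin linker desmoplakin, had 11.15, 11.40 and 11.60 in HET mice, against 11.20, 11.39 and 11.61 in WT mice. Jup had 11.01, 11.43 and 11.62 in HET mice, against 11.10, 11.42 and 11.70 in WT mice. Pkp1, a plakophilin of the suprabasal epidermis, had 10.34, 10.85 and 11.11 in HET mice, against 10.54, 10.87 and 11.30 in WT mice. Pkp3, a plakophilin found throughout the epidermis, had 7.79, 8.15 and 8.57 in HET mice, against 7.62, 8.19 and 8.62 in WT mice. In all 4 genes the groups overlapped, and the full spans were 1.37-fold for Dsp, 1.62-fold for Jup, 1.94-fold for Pkp1 and 2.01-fold for Pkp3.

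**Figure D1:**
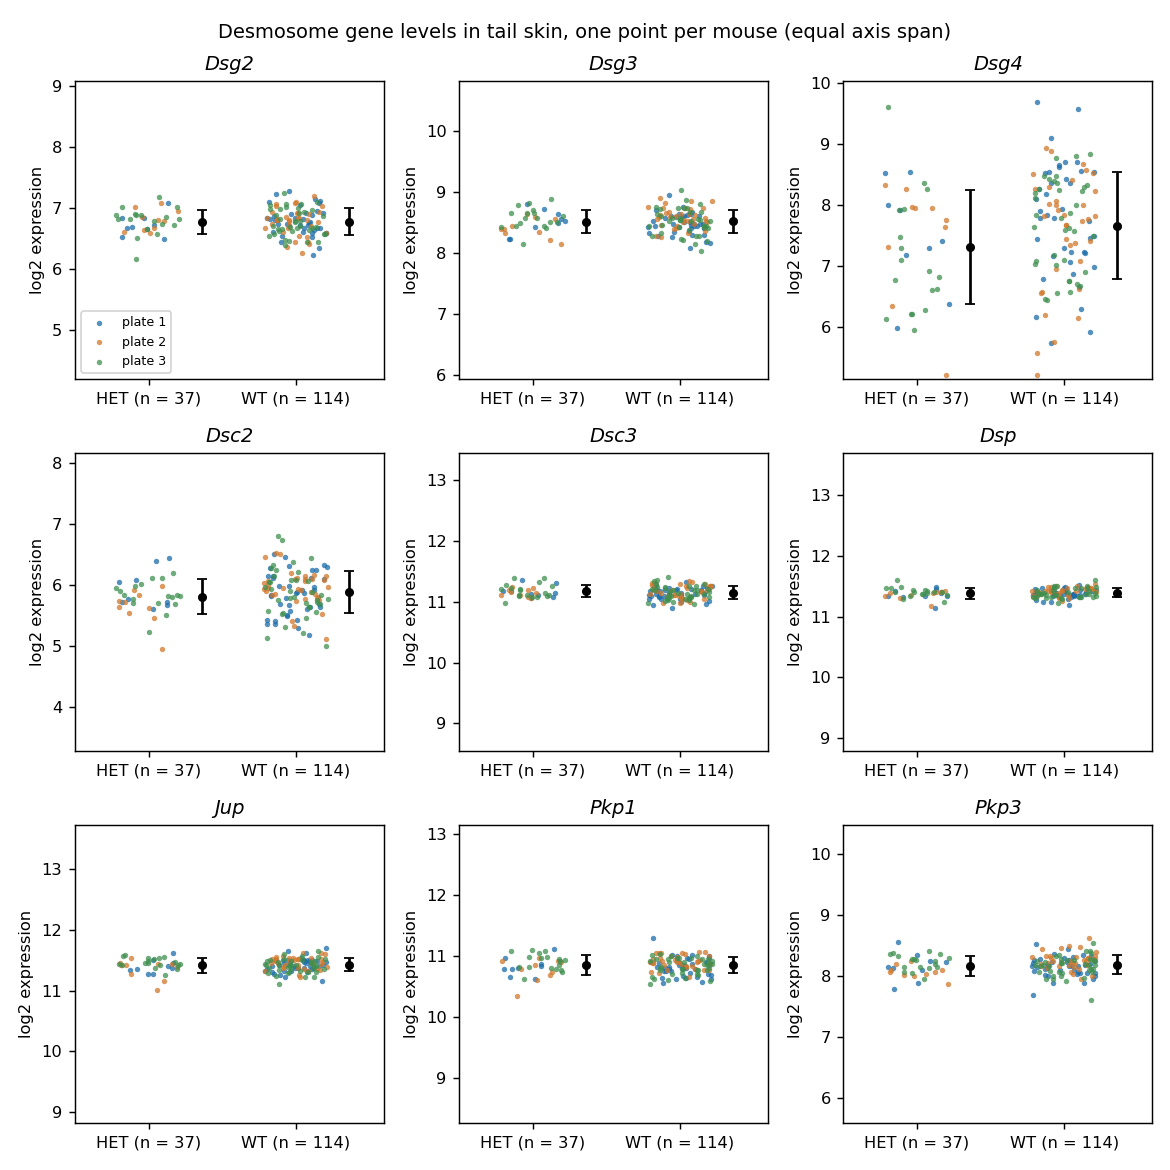
Log2 expression of the 9 desmosome genes (y axis, equal span in each panel) in HET mice on the left and WT mice on the right of each panel, 1 point per mouse coloured by plate, with the group mean and SD as a black point and bar. The points of Dsg4 spread over more than 4 log2 units in both groups, and those of Dsp and Dsc3 over about 0.5.

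The lowest Jup (11.01) and Pkp1 (10.34) of all mice came from the same animal, a HET female on plate 2, numbered here as replicate 14 of the HET group. That mouse also had the second lowest Dsp (11.17) and the fourth lowest Dsg3 and Pkp3, with Dsg4 at 7.75, near the median of all mice. Its mean over 6 suprabasal keratins was the lowest of all mice and its mean over 8 cornified envelope genes the second lowest, whereas only 3 mice had a higher mean over 5 endothelial markers (6.70, against a median of 6.15 over all mice). The part of these tissue markers in its plaque gene levels was not tested, and results are given without this mouse where that changes a call.

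The residual SD between mice, after genotype, sex and plate, set the 9 genes far apart. It was 0.885 for Dsg4, and 0.473% of the 18810 genes had a larger one. It was 0.339 for Dsc2 (11.95% of genes larger), 0.213 for Dsg2 (55.7%) and 0.188 for Dsg3 (69.8%). Among the plaque genes it was 0.161 for Pkp3, 0.142 for Pkp1, 0.112 for Jup and 0.075 for Dsp, and for Dsp 99.9% of genes had a larger SD. The place of Dsp rests on the probe set used: its other probe set, with a mean of 8.18, had an SD of 0.297 over all mice, against 0.0749 for the one used, and r between them was 0.53. Dsc3, with 0.101 and 99.05%, lay with the plaque genes and not with Dsc2. High levels alone go with a small SD on this platform. Among genes of like mean level the share with a larger SD was 96.2% for Dsp and 80.8% for Dsc3, but 59.2% for Jup and 54.3% for Pkp1. For Dsg4 it was 0.421%.

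No desmosome gene passed the test between HET and WT mice. The test was limma with genotype, sex and plate in one model, and a gene was called at a Benjamini-Hochberg adjusted p under 0.05 over 18810 genes. It called 0 of 9 desmosome genes, against 21 of all genes (0.112%), of which 6 were higher and 15 lower in HET mice, or 8 and 12 with arrays centred on their medians. At an unadjusted p under 0.05 there were 1235 genes, and Dsg4 was the one desmosome gene among them. Dsg4 averaged 7.31 ± 0.94 in HET mice (SD, n = 37) and 7.66 ± 0.88 in WT mice (SD, over the 62 males and 52 females). The fitted difference was -0.34 ± 0.17 (SE, HET minus WT), with a 95% confidence interval from -0.67 to -0.0091, an unadjusted p of 0.044 and a limma adjusted p of 0.74. The difference was -0.30, -0.11 and -0.53 on plates 1, 2 and 3 fitted alone.

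Hair markers had differences of the same sign as Dsg4. All 19 measured hair shaft and inner root sheath markers had a fitted difference below 0, with a median of -0.26, against -5.9e-05 over all genes. Of these 19 genes 0 were called, and the smallest unadjusted p was 0.015. Their mean level ran from 7.53 to 10.08 in HET mice with a median of 8.68, and from 7.14 to 10.39 in WT mice with a median of 9.05. With that mean as a covariate, a fit added after the data had been seen, the difference of Dsg4 was -0.031 ± 0.053 (SE). Dsg4 itself had r = 0.94 with the mean of these markers across mice. This covariate therefore takes out most of the variation of Dsg4, and the fit cannot show a cause of its difference. The 19 markers vary together between mice, so their common sign is not 19 separate observations.

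The intervals of the other 8 desmosome genes all included 0 and lay between -0.21 and 0.085. They were narrowest for the plaque gene Dsp, at -0.014 ± 0.015 (SE, 95% interval from -0.044 to 0.015), and for Dsc3, at 0.018 ± 0.020 (SE, from -0.021 to 0.057). Jup differed by -0.0090 ± 0.022 (SE) and Pkp1 by -0.0029 ± 0.027 (SE). Dsc2 had the next largest difference after Dsg4, -0.079 ± 0.064 (SE, from -0.21 to 0.048). Limma adjusted p-values of these 8 genes were all 0.90 or higher.

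**Figure D2:**
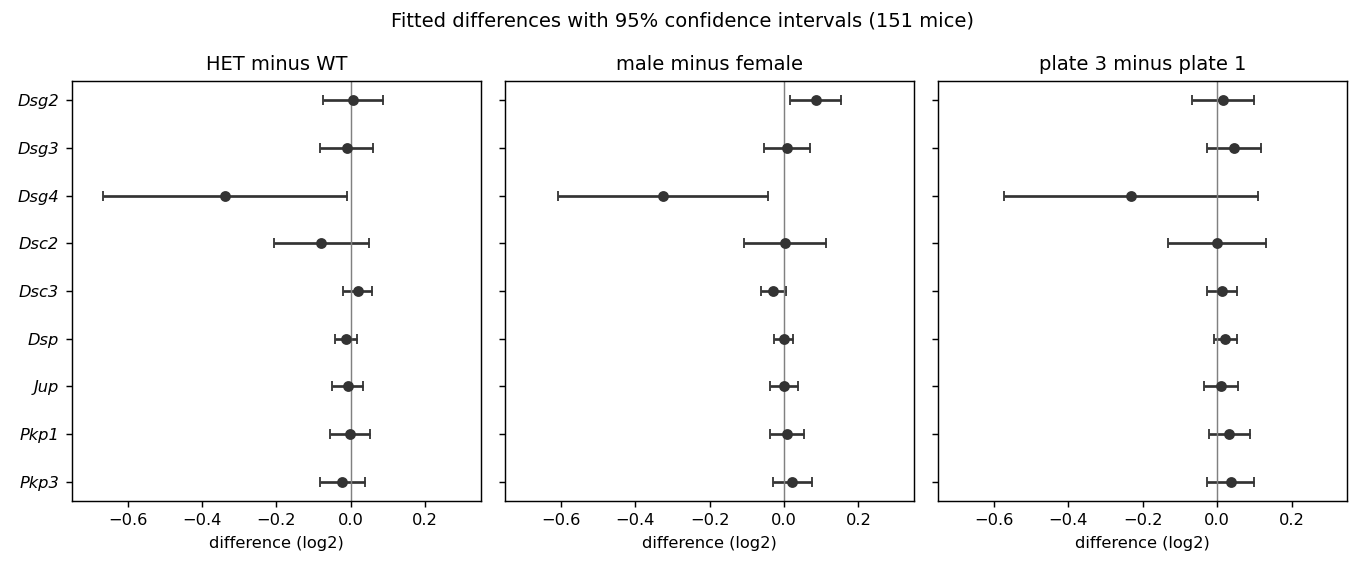
Fitted log2 difference of each desmosome gene (x axis) for HET minus WT, male minus female, and plate 3 minus plate 1, with 95% confidence intervals from limma over all mice. Dsg4 has the widest interval in each panel, and those of Dsp, Jup, Pkp1 and Dsc3 stay within 0.1 of 0.

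Between the sexes 0 of 9 desmosome genes were called, against 680 of 18810 genes (3.62%). Of those, 207 were higher and 473 lower in males, and with arrays centred on their medians the split was 348 and 271. Dsg4 and Dsg2 had an unadjusted p under 0.05, in opposite directions. Dsg4 had a lowest level of 5.21, a median of 7.42 and a highest of 9.58 in males, against 5.56, 7.83 and 9.69 in females. The fitted difference was -0.32 ± 0.14 (SE, male minus female, limma adjusted p = 0.22), with overlapping ranges. Dsg2 had 6.26, 6.82 and 7.28 in males, against 6.16, 6.71 and 7.20 in females. Its difference was 0.085 ± 0.035 (SE, 95% interval from 0.016 to 0.15, limma adjusted p = 0.17), again with overlapping ranges. On plates 1, 2 and 3 fitted alone it was 0.15, 0.039 and 0.071.

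For male minus female too, hair markers had the sign of Dsg4. All 19 had a fitted difference below 0 with a median of -0.28, against -0.0060 over all genes, and Foxn1, a transcription factor of hair keratinisation (-0.17 ± 0.05, SE), and Krt25, an inner root sheath keratin (-0.36 ± 0.10, SE), were called. With the marker mean as a covariate, added after the data had been seen, the sex difference of Dsg4 was 0.0092 ± 0.046 (SE). As for genotype, this covariate takes out most of the variation of Dsg4, and a cause was not tested. In the same fit Dsg2 was called, at 0.13 ± 0.031 (SE, limma adjusted p = 0.0078), as 1 of 9 desmosome genes. Over all genes that fit called 582 of 18810 for sex. Markers of other cells differed by sex as well, and their part in the Dsg2 value was not tested. Among fibroblast markers 3 of 6 were called higher in males, among them Col3a1 (0.26 ± 0.05, SE), and 1 lower. Among adipocyte markers 2 of 5 were called lower, such as Adipoq (-0.30 ± 0.07, SE).

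The other 7 desmosome genes had intervals that included 0 and lay between -0.11 and 0.11 for male minus female. Dsc3 came nearest to the threshold, at -0.029 ± 0.017 (SE, limma adjusted p = 0.40). Of the genes that work beside them, Pkp4, a plakophilin relative, was lower in males (-0.075 ± 0.023, SE, adjusted p = 0.047). It was 1 of 6 further desmosome genes measured, the others being Dsg1b, Dsg1c, Pkp2, Perp and Cdsn. Of 6 suprabasal keratins 1 was called, Krt1 (0.11 ± 0.03, SE), and of 9 basal keratin and hemidesmosome genes 2, Lamb3 (0.14 ± 0.03, SE) and Krt14 (0.073 ± 0.019, SE), all higher in males. Of 9 adherens junction genes 2 were lower in males, the actin linkers Vcl (-0.10 ± 0.03, SE) and Ctnna1 (-0.059 ± 0.017, SE), and of 6 tight junction genes 1, the claudin Cldn1 (-0.089 ± 0.023, SE). For genotype none of the 17 other lists examined held a called gene, with 1235 genes at an unadjusted p under 0.05.

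Plates gave 0 of 9 calls in limma's F test, against 4 of 18810 genes (0.0213%), with 152 genes at an unadjusted p under 0.05. That is fewer than evenly spread p-values would give. No source used here says whether values were adjusted for plate before deposit, so these calls do not show how alike the plates were on the raw arrays. Unadjusted p-values of the desmosome genes ran from 0.17 for Pkp1 to 0.98 for Dsc2. Dsg4 had medians of 7.79, 7.79 and 7.53 on plates 1, 2 and 3, and plate 3 minus plate 1 was -0.23 ± 0.17 (SE). Pkp3 had medians of 8.16, 8.22 and 8.19. The genotype by sex term gave 0 of 9 calls and 0 of 18810 genes (0.0%), with 895 genes at an unadjusted p under 0.05. For Dsg3 it was -0.12 ± 0.07 (SE, limma adjusted p = 0.998), and for Dsg4 -0.23 ± 0.33 (SE, 95% interval from -0.89 to 0.42).

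Across mice, the desmosome genes formed a tight plaque group from which Dsg4 ran the opposite way. Correlations were computed over the 81 males and 70 females together, on residuals after genotype, sex and plate, for the 36 pairs of 9 genes. Each was tested with 100000 two-sided permutations, adjusted over the 36 pairs. The smallest p these can give is 1e-05, which adjusts to 2.1e-05. Of 36 pairs 27 were called, 20 positive and 7 negative, and the smallest called r was 0.189 in size. Of all correlations between a desmosome gene and another gene of the array, 24.1% reached that size, 13.3% positive and 10.8% negative. A call at this number of mice therefore says little by itself, and the sizes are what set the pairs apart.

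Jup and Pkp1 had the highest correlation, r = 0.80 (Spearman's rho = 0.78, both at the smallest p). Each was the other's closest gene among 18809. The fitted line rose by 1.01 in Pkp1 per unit of Jup, though Jup spanned only 0.69 log2 units over all mice. Within plates r was 0.78, 0.89 and 0.73. It was 0.78 with the 2 mice of most extreme Jup left out, and also 0.78 without HET replicate 14.

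Dsp joined them, with r = 0.70 for Jup (rho = 0.66) and r = 0.68 for Pkp1 (rho = 0.66). Within plates these ran from 0.66 to 0.74 and from 0.63 to 0.74. Jup was the closest of 18809 genes to Dsp and Pkp1 the third closest. Pkp3 had r = 0.66 with Pkp1 (rho = 0.62), 0.62 with Jup (rho = 0.61) and 0.51 with Dsp (rho = 0.47). The last was 0.28 after quantile normalization. With the mean of both Dsp probe sets, Dsp had r = 0.52 with Jup and 0.51 with Pkp1. All 6 pairs of these 4 plaque genes were also called in each of the 17 alternatives tried, among them each plate, sex and genotype alone.

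**Figure D3:**
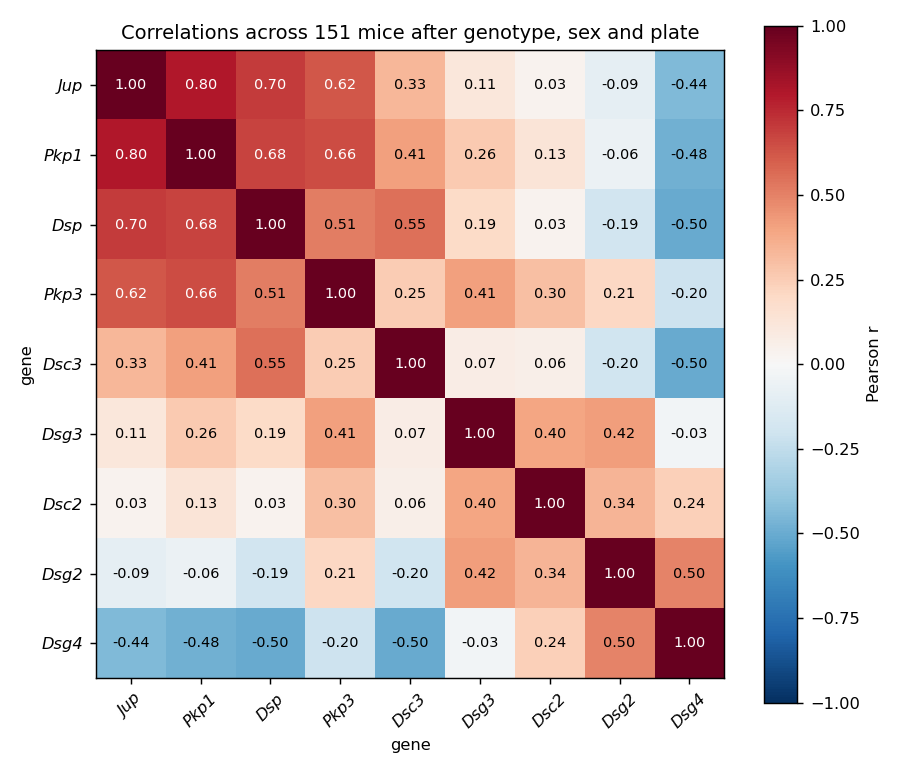
Pearson r of each pair of the 9 desmosome genes over all mice after genotype, sex and plate (colour, with the value in each cell). Jup, Pkp1, Dsp and Pkp3 form a block from 0.51 to 0.80, and Dsg4 is negative with all 4 and with Dsc3.

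Promoter sequences were read for these genes because Jup and Dsp moved together although they lie on different chromosomes. Of Jup, Dsp, Pkp1 and Pkp3, RefSeq promoters (assembly GRCm38.p6, 250 bases before to 50 after the start site, written along the gene's strand) were found for 2. That of Jup is at chr11:100397741-100398040 on the minus strand and that of Dsp at chr13:38151044-38151343 on the plus strand. Capitals mark every match, on either strand, to the KLF motif CACCC, the GC box GGGCGG or the E-box CACCTG, and no base lies in more than 1 match.
Jup: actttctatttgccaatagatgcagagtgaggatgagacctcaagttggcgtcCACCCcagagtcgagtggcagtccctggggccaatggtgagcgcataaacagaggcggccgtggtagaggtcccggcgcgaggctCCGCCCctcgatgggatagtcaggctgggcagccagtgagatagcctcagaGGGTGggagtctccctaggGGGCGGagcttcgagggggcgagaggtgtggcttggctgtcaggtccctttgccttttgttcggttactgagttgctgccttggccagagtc
Dsp: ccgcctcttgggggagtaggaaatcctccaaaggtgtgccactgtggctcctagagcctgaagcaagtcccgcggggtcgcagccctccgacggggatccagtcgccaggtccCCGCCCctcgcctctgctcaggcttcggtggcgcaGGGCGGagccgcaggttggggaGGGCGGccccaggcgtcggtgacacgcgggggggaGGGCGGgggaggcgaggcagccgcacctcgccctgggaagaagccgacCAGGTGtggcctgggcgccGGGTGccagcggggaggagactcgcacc
The GC box had 2 matches in Jup and 4 in Dsp, and 35.66% of 32851 promoters of this length hold at least 1. The KLF motif had 2 matches in Jup and 1 in Dsp, and 57.52% of promoters hold it. The E-box bound by Snail and Zeb factors had 1 match, in Dsp just after the start site, and 20.21% hold it. Neither the AP-1 motif TGANTCA (7.81% of promoters) nor the TATA motif TATAAA (13.62%) was found in these 2 windows. These matches describe the letters of the windows only.

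Dsc3 went with the plaque genes. Its r was 0.55 with Dsp (rho = 0.55), 0.41 with Pkp1 (rho = 0.40), 0.33 with Jup (rho = 0.33) and 0.25 with Pkp3 (rho = 0.23), all called. Dsp was the closest of 18809 genes to Dsc3, but with the mean of both Dsp probe sets their r was 0.33. After centring arrays on their medians, Dsc3 had r = 0.51 with Jup. That pair was not called on plate 1 alone (r = 0.28), on plate 2 alone (0.30) or in females alone (0.21). With Pkp1, Dsc3 was not called on plate 1 alone (r = 0.29). With Pkp3 the plates differed, at 0.031, 0.30 and 0.39, and the pair was not called on plates 1 or 2 alone, in WT mice alone, in females alone or after quantile normalization.

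Dsg4 was negative with all 5 of these genes. Its r was -0.50 with Dsc3 (rho = -0.50), -0.50 with Dsp (rho = -0.55), -0.48 with Pkp1 (rho = -0.50), -0.44 with Jup (rho = -0.45) and -0.20 with Pkp3 (rho = -0.20). With the mean of both Dsp probe sets, Dsg4 and Dsp had r = -0.28 and were still called. Within plates the first 4 ran from -0.64 to -0.35. With the 2 mice left out that lay farthest from the median of the pair's first gene, they ran from -0.50 to -0.42. The pair of Dsg4 and Pkp3 was not called on plates 1, 2 or 3 alone (r = -0.090, -0.25 and -0.25). It was also not called in WT mice alone (-0.13) or in females alone (-0.12). The slopes were shallow: with Dsg4 higher by 1, Pkp1 was lower by 0.08 in the fitted line (slope -0.078), Jup by 0.06 (slope -0.056) and Dsp by 0.04 (slope -0.042). Dsp, Dsc3, Pkp1 and Jup were among the 173 genes most negatively correlated with Dsg4.

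Of the gene lists examined, the hair shaft and inner root sheath markers moved most closely with Dsg4 (r = 0.94 with their mean). With that mean as a covariate, Dsg4 had r = -0.45 with Jup, -0.40 with Pkp1, -0.30 with Dsc3 and -0.28 with Dsp. Since the covariate takes out most of the variation of Dsg4, these values concern only the small part left. With fibroblast and endothelial marker means as covariates instead, the 4 values ran from -0.50 to -0.44. The fit with fibroblast and endothelial means was added after the data had been seen.

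The remaining cadherins tied together in a looser set. Dsg2 had r = 0.50 with Dsg4 (rho = 0.47), 0.42 with Dsg3 (rho = 0.46) and 0.34 with Dsc2 (rho = 0.35). Dsg2 and Dsg3 held between 0.46 and 0.47 within plates. With the hair marker mean as a covariate, Dsg2 and Dsg4 had r = 0.15, not called, and Dsg2 and Dsg3 had 0.51. Here too the covariate takes out most of the variation of Dsg4. Dsc2 had r = 0.40 with Dsg3 (rho = 0.35), 0.30 with Pkp3 (rho = 0.28) and 0.24 with Dsg4 (rho = 0.28), and the last was -0.25 with the hair marker covariate. Several calls of Dsc2 did not hold in parts of the data. Dsc2 and Dsg4 were not called on plates 1, 2 or 3 alone, or in males or HET mice alone. Dsc2 and Dsg2 were not called on plate 2, in males or in HET mice alone. Dsc2 and Dsg3 were not called on plate 2 or in HET mice alone.

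Pkp3 was called positive with each measured cadherin gene except Dsg4, but not all of these calls held. It had r = 0.41 with Dsg3 (rho = 0.36), 0.30 with Dsc2 and 0.21 with Dsg2 (rho = 0.18). Dsg3 was also called with Pkp1 (r = 0.26, rho = 0.20) and with Dsp (r = 0.19, rho = 0.077). With fibroblast and endothelial means as covariates, Dsg2 and Pkp3 had r = 0.077 (permutation, adjusted p = 0.43), Dsg3 and Pkp1 had 0.15 (adjusted p = 0.091) and Dsg3 and Pkp3 had 0.25. Dsg2 and Pkp3 were also not called on plates 2 or 3 alone, or in females, males or HET mice alone. Dsc2 and Pkp3 were not called on plates 1 or 2 alone, and had r = -0.092 in HET mice alone. Dsg3 and Pkp3 were not called on plates 2 or 3 alone or in HET mice alone. Dsg3 and Pkp1 were not called on plates 2 or 3 alone, or in WT mice, HET mice or females alone. The call of Dsg3 with Dsp is uncertain too: rho had an adjusted p of 0.43, r was 0.15 without HET replicate 14 (permutation, adjusted p = 0.083), and plate 3 alone gave -0.051. Dsg2 was negative with Dsc3 (r = -0.20, rho = -0.18) and with Dsp (r = -0.19, rho = -0.22), and with the hair marker covariate these were 0.013 and 0.031. With arrays centred on their medians they were -0.15 and -0.11, and in males alone -0.13 and -0.051, none of them called. With the mean of both Dsp probe sets, Dsg2 and Dsp had r = -0.059 and were not called.

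Of the 9 pairs that were not called, 8 joined Dsc2, Dsg2 or Dsg3 with a plaque gene or with Dsc3. Dsc2 and Jup had r = 0.031 and Dsg2 and Pkp1 had -0.060. Neighbouring genes of the cadherin cluster on chromosome 18 did not move together as a rule. The order there is Dsc3, Dsc2, Dsc1, Dsg4, Dsg3 and Dsg2, with the Dsg1 genes after Dsc1. Dsc3 and Dsc2 had r = 0.058 and Dsg4 and Dsg3 had -0.030, neither called, while Dsg3 and Dsg2 had 0.42. Over 36 measured genes around each cadherin gene, other members left out, the median r lay between -0.081 for Dsg4 and 0.043 for Dsc3.

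**Figure D4:**
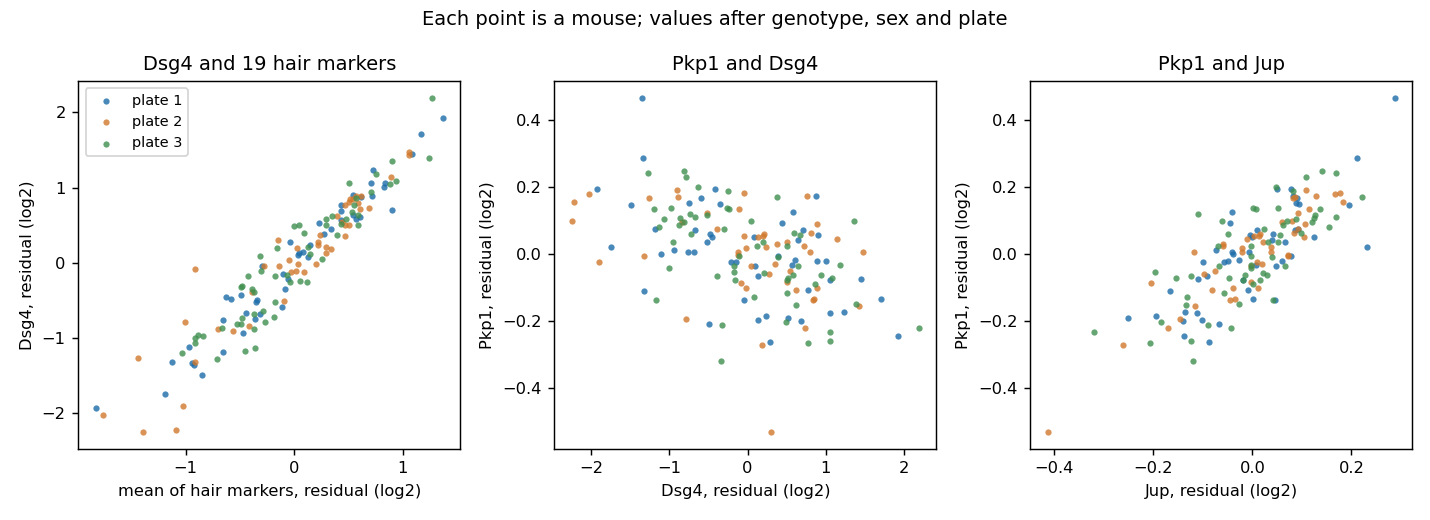
Residual log2 values of single mice after genotype, sex and plate, coloured by plate. Dsg4 (y axis) rises with the mean of 19 hair markers (x axis), Pkp1 falls with Dsg4 (r = -0.48), and Pkp1 rises with Jup (r = 0.80), with HET replicate 14 at the lower left of the last panel.

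The genes most like each member were named by Pearson r of residuals over the same mice. All genes of an array share its RNA and its hybridisation, so these values are descriptions. The 5 genes closest to Dsg4 were Krt35 (0.95), Calhm4 (0.95), Krt73 (0.95), Krt31 (0.95) and Krt82 (0.94), of which Krt31, Krt35 and Krt82 are hair shaft keratins and Krt73 is an inner root sheath keratin. The most negative was Slc16a14 (-0.68). Those closest to Dsg3 were Car12 (0.59), Itga3 (0.57), Ajuba (0.57), Krt14 (0.56) and Lamb3 (0.55), with Ogn, a small proteoglycan of connective tissue, at the other end (-0.58). Itga3 and Lamb3 encode an integrin and a laminin chain of the basement membrane zone, and Krt14 a keratin of the basal layer.

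The genes closest to Dsg2 were Hspa14 (0.61), Fzd3 (0.60), Ppfia1 (0.60), Myh9 (0.59) and Enc1 (0.59), with Il6ra lowest (-0.54). Dsc2 was closest to Pinlyp (0.60), Krt6a (0.57), S100a7a (0.53), Sprr1a (0.52) and Gjb2 (0.50), with Mbnl1 lowest (-0.53). Krt6a is a keratin of the follicle and of wounded epidermis, Sprr1a a cornified envelope precursor and Gjb2 connexin 26. After Dsp, the genes closest to Dsc3 were Map2 (0.54), Mboat2 (0.54), Dmkn (0.53) and Adgrf2 (0.53), with Scube3 lowest (-0.57).

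Beside Jup and Pkp1, Dsp was closest to Ppl (0.69), the plakin periplakin, Daam1 (0.66) and Dgat2 (0.66), with Nrp2 lowest (-0.57). Jup was closest, after Pkp1, to Trim29 (0.74), Gltp (0.71), Klf3 (0.70) and Lypd5 (0.70), with Nrp2 lowest again (-0.62). Pkp1 was closest, after Jup, to Ano1 (0.73), Epn3 (0.72), Stap2 (0.71) and Klf3 (0.71), with Eps8 lowest (-0.60). Pkp3 was closest to Evpl (0.69), the plakin envoplakin, then Klk11 (0.68), Pkp1 (0.66), Galnt6 (0.65) and Cebpa (0.65), with Meox2 lowest (-0.63). Over all other genes the middle 90% of correlations with Jup lay between -0.30 and 0.35, and with Pkp1 between -0.30 and 0.36.

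Correlations with lists of skin genes separated the members. With the mean of 19 hair shaft and inner root sheath markers, Dsg4 had r = 0.94, positive with 19 of 19 and with a median r of 0.90. The lowest of these were the transcription factors Hoxc13 (0.44) and Foxn1 (0.47). Dsg2 had r = 0.46 and Dsc2 0.34 with the same mean, each positive with 19 of 19 markers. Dsp (-0.43), Dsc3 (-0.43) and Pkp1 (-0.38) were negative with 19 of 19. Jup (-0.31) and Pkp3 (-0.12) were negative with 17 of 19, and Dsg3 (-0.077) with 15. With 8 stem cell and outer root sheath markers, Dsg4 had r = 0.71, from -0.42 for Nfatc1 to 0.93 for Krt75, and Dsg2 had 0.44.

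The plaque genes were most strongly correlated with lists of epidermal differentiation. With 8 cornified envelope genes r was 0.74 for Pkp3, 0.72 for Pkp1, 0.66 for Jup and 0.56 for Dsp, each positive with 8 of 8. The envelope gene Lor, loricrin, had r = 0.65 with Pkp1, while Ivl, involucrin, had 0.067. With 6 suprabasal keratins the 4 values ran from 0.62 for Dsp to 0.70 for Pkp1. With 6 epidermal transcription factors they ran from 0.66 for Pkp3 to 0.71 for Pkp1. Klf4, which drives barrier formation, had r = 0.62 with Pkp1, and Trp63, the master factor of the epidermis, had 0.33. Dsg4 was negative with 8 of 8 cornified envelope genes (r with their mean -0.34) and with 6 of 6 suprabasal keratins (-0.40).

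Dsg3 differed from the plaque genes in its closest list. With 9 basal keratin and hemidesmosome genes it had r = 0.59, positive with 9 of 9, from Krt15 (0.10) to Krt14 (0.56). The same list gave 0.42 with Pkp1, 0.39 with Dsp and -0.44 with Dsg4. With 6 suprabasal keratins Dsg3 had 0.33. Whether these correlations with Dsg3 and with the plaque genes differ from each other was not tested.

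Markers of the dermis ran against most members. With 6 fibroblast markers r was -0.55 for Pkp3, -0.44 for Dsg3, -0.40 for Jup, -0.36 for Pkp1 and -0.31 for Dsp, each negative with 6 of 6. Dsc3 had -0.10 and Dsg4 0.075. With 5 endothelial markers Pkp3 had -0.53 and Jup -0.49, each negative with 5 of 5. With 6 skeletal muscle markers the 9 members ran from -0.33 for Pkp3 to 0.10 for Dsg4. With fibroblast and endothelial marker means as covariates, all 6 plaque pairs were called, from r = 0.41 for Dsp and Pkp3 and 0.49 for Jup and Pkp3 to 0.75 for Jup and Pkp1. In the same fit 3 pairs called otherwise were not, Dsg2 with Pkp3, Dsg3 with Pkp1 and Dsg3 with Dsp. A further 2 were called as negative, Dsg2 with Jup (-0.25) and Dsg2 with Pkp1 (-0.19).

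**Figure D5:**
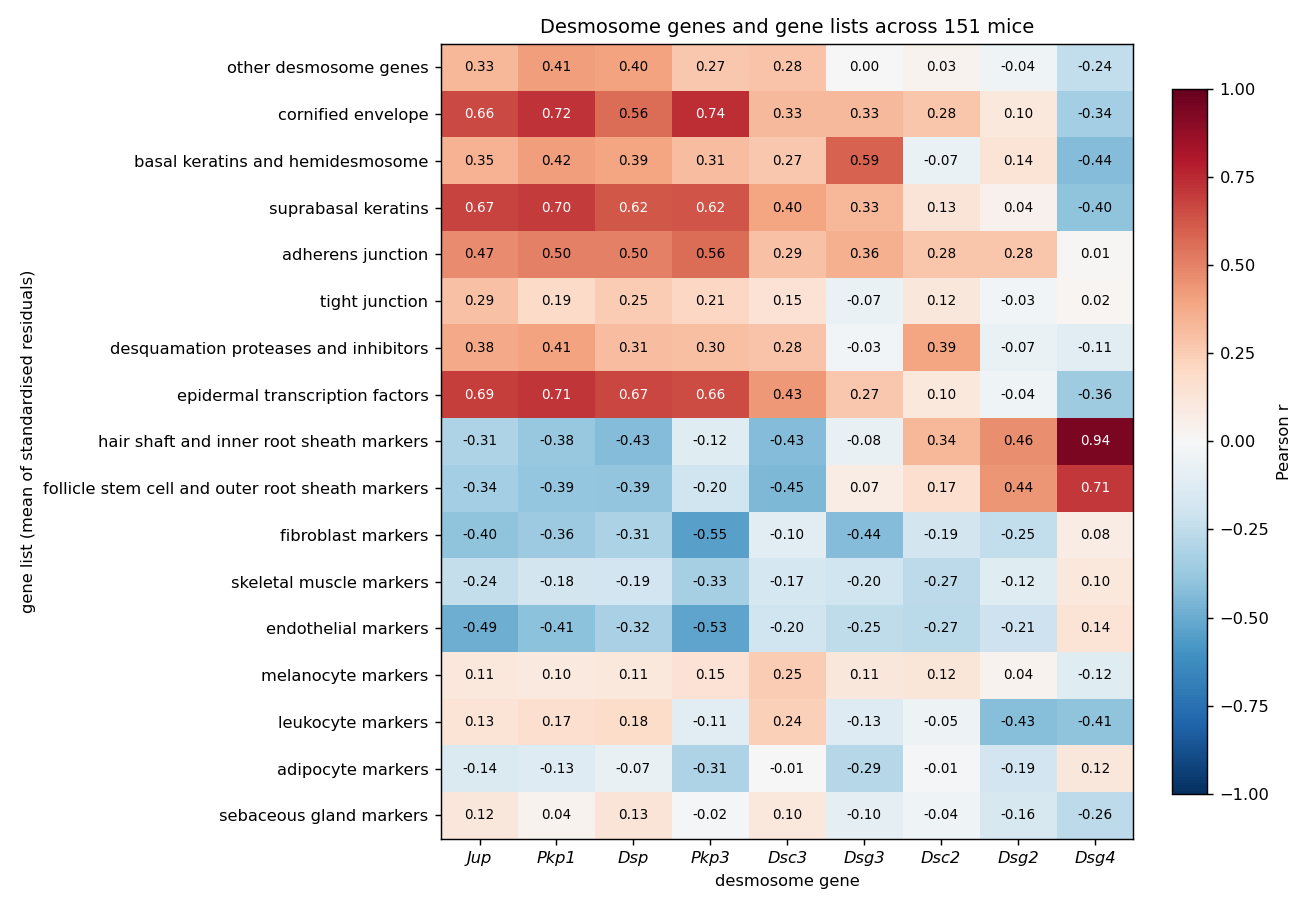
Pearson r over all mice between each desmosome gene (columns) and the mean of the standardised residuals of each gene list (lines), shown by colour and value. Dsg4 stands out with the hair lists (0.94 and 0.71), and Jup, Pkp1, Dsp and Pkp3 with the cornified envelope, suprabasal keratin and epidermal transcription factor lists (0.56 to 0.74).

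Of the further desmosome genes, Cdsn, the corneodesmosome protein corneodesmosin, had r = 0.70 with Pkp1, 0.69 with Jup and 0.51 with Dsp. Dsg1b, an upper epidermal desmoglein gene, had 0.56 with Pkp1, 0.52 with Jup and -0.31 with Dsg4. Dsg1c, its neighbour, had values from -0.15 with Jup to 0.081 with Dsc3. Pkp2, the plakophilin of simple epithelia and heart, went with the follicle side: its r was 0.49 with Dsg4 and 0.45 with Dsg2, against -0.32 with Dsp and -0.31 with Pkp1. The Dsg1 genes are close copies of one another, so how far a probe set reads more than 1 of them is uncertain, and a probe set shared by all 3 was not used.

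Pkp3 lies on chromosome 7, with 5 measured genes counted from it up to the start of Hras. Under the cross described above a WT mouse holds a spretus copy of Hras and a HET mouse may not, so the Hras genotype and the origin of nearby alleles cannot be told apart. That WT mice hold this copy is sure only if they came from that cross, which their number makes uncertain. Pkp3 differed by -0.023 ± 0.031 (SE, HET minus WT, 95% interval from -0.084 to 0.038, limma adjusted p = 0.94). Of its 40 nearest measured genes, 20 on each side, 3 were called, against 21 of all 18810 genes (0.112%). Ano9 (0.36 ± 0.07, SE) and Lrrc56 (0.21 ± 0.04, SE) were higher and Sirt3 (-0.36 ± 0.06, SE) lower in HET mice. Across mice Pkp3 had a median r of 0.079 with these 40 genes, from -0.43 for Ifitm2 to 0.46 for Ric8a, and 0 of them were among its 100 closest genes.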

How the data were processed

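The values are log2 expression per probe set, deposited by the authors and made with RMA, per the submitters' processing notes. The version of RMA and any adjustment after it were not given in the sources used here. RNA was extracted with Trizol, per the labels' protocols. Of 35556 probe set rows 171 were empty. Probe sets were named through the platform annotation given, with 1 symbol for 21201, several for 1881 and none for 12303. Symbols, chromosomes and gene order came from RefSeq (GRCm38.p6), which 21168 of the named probe sets matched. No probe was left out for sequence differences between the parental strains. The Hras transcript is not analysed here, so the genotype labels were not checked against it. The members and gene lists were chosen with earlier results of these data known.

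The group comparisons used limma 3.58.1 (R 4.3.3) over 18810 genes, with lmFit and a trend in eBayes. On simulated arrays 74 of 100 genes changed by 0.2 and 99 of 100 changed by 0.4 were recovered for genotype, and 9 unchanged genes were called. The changed genes were drawn at random and simulated as independent, so these counts do not describe a gene as variable as Dsg4 (residual SD 0.885). Correlations were computed in Python 3.11.15 (numpy 2.4.6) on residuals. The test had been planned for 10 genes and ran on the 36 pairs of the 9 measured. The genes named beside the members are the 5 highest and the lowest by r, and up to 3 called genes of a list. Precision is limited by the number of mice.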

Additional observations from a re-analysis of the deposited data

Results flagged for a closer look

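Dixon's test was applied to the 9 desmosome genes in the 5 groups of 4 to 10 mice that share genotype, sex and plate, which makes 45 tests, and 4 singled out a mouse. Chance gives about 1 in 20. In the 5 HET females of plate 2, the lowest Dsp was 11.171 and the next 11.394, the lowest Jup was 11.011 and the next 11.422, and the lowest Pkp1 was 10.339 and the next 10.787. All 3 values came from HET replicate 14, so they are not separate observations. In the 10 HET females of plate 3, the lowest Dsc2 was 5.233 and the next 5.774.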

How the results depend on the processing

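The alternatives were the arrays labelled outlier, median centring, quantile normalization, the mean of probe sets, other limma settings, a filter on low genes, no plate term, each plate, sex and genotype alone, and for pairs the hair marker mean as a covariate. Those added after the data were seen are the hair covariate for group differences, the fibroblast and endothelial covariates, HET alone for pairs, and without HET replicate 14. Of 423 recomputed group differences 1 was called. With the hair covariate the sex comparison called 1 desmosome gene, Dsg2, against 582 of 18810 genes, and the sex difference of Dsg4 turned to 0.0092. Of 297 recomputed differences with no direction to report, 47 changed sign. Of 36 pairs, 15 were called on plate 2 alone and 17 in HET alone, both with fewer mice. Of 459 repeats of called pairs, 391 were called with the same sign, 62 were not called and 6 changed sign, and of 153 repeats of other pairs 8 were called. The changes of sign were Dsg2 with Dsp on plate 1 (0.0396), Dsg3 with Dsp on plate 3 (-0.0509), Dsc2 with Pkp3 in HET alone (-0.0915), and, with the hair covariate, Dsc2 with Dsg4 (-0.2521), Dsc3 with Dsg2 (0.0126) and Dsg2 with Dsp (0.0305). Their cause was not tested. Without HET replicate 14, 26 pairs were called. No paired analysis was possible because replicate numbers of HET and WT mice were given in accession order and pair no animals.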

Other observations

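The other cell junctions of skin followed the desmosome genes in part. With the mean of 9 adherens junction genes r was 0.56 for Pkp3, 0.50 for Pkp1 and Dsp, 0.47 for Jup and 0.0084 for Dsg4. The members of that list disagreed: with Pkp1, r was 0.51 for Nectin1 and 0.50 for Cdh1, the gene of E-cadherin, but -0.22 for Ctnnb1, the gene of beta-catenin, which is a close relative of plakoglobin. With Dsg4, 3 of the 9 genes were positive and 6 negative, from -0.35 for Cdh1 to 0.60 for Ctnnb1. Cdh3, the gene of P-cadherin, had r = 0.38 with Dsg3 and -0.012 with Pkp1. With 6 tight junction genes the values lay between -0.070 for Dsg3 and 0.29 for Jup.

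The proteases and inhibitors of desquamation, which cut desmosomal proteins as the horny layer sheds, had r = 0.41 with Pkp1, 0.39 with Dsc2 and 0.38 with Jup as the mean of 9 genes. With Dsc2 the highest were Klk14 and St14 (0.34 each). With 5 leukocyte markers Dsg2 had r = -0.43 and Dsg4 -0.41, each negative with 5 of 5, while Dsc3 had 0.24. With melanocyte, adipocyte and sebaceous gland markers the members ran from -0.31 (Pkp3 with adipocyte markers) to 0.25 (Dsc3 with melanocyte markers). Of the Schwann cell list 1 of 5 genes was measured, and its r with the members ran from -0.079 to 0.14.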
